A study of Mus musculus with 6 samples.

Results

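MicroRNA genes were followed in Melan-a melanocytes transfected with an siRNA against Dicer (siDicer) or with a control siRNA (siScr). A microRNA gene was taken as any transcript cluster, the array's unit of measurement, that the annotation paired with a single gene whose symbol starts with Mir and a number or with Mirlet7. Host genes ending in hg were left out. Of 249 microRNA genes named in this way, 132 had a mean signal over the 6 arrays at or above the 30th percentile of all named genes (log2 4.15) and are described here, among 5356 genes that passed the same filter. The other 117 were dimmer, with means of 1.91 to 4.09 and a median of 2.82. The members were thus chosen by their symbol and selected on the mean signal, which ignores the groups, so the levels below are a description. The genes nearest the limit were Mir298 (4.15) and Mir6898 (4.22) inside it, and Mir3090 (4.09) and Mir7652 (4.08) outside it. A further 47 clusters that hold microRNA symbols were paired with several genes and were not used.

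Melan-a is an immortalised, pigmented melanocyte line of C57BL/6 mice, female per the labels. Both groups grew with the phorbol ester TPA at 200 nM, were seeded at 150000 cells, and received 50 pmol of siRNA with a lipid and magnetic transfection reagent. Each group holds 3 cultures, at passages 47, 54 and 56 of the line, so every siDicer culture has a siScr culture of its own passage. A harvest time of 48 h stands in the titles, whereas the treatment protocol has new medium at 6 h and lysis 24 h later. The design text names the cultures biological replicates, but all come from 1 line, so the spread between them is that of passages and not of animals. RNA was extracted with a kit that keeps small RNA, had an integrity number of 10.0 in each sample, and 100 ng of it was labelled for the Clariom D mouse array. The siRNA was transient and unselected, and Dicer1 itself was not analysed here, so the knockdown was not checked.

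MicroRNA genes are first copied into long primary transcripts, either of their own or within the intron of a host gene. Drosha with Dgcr8 cuts the hairpin out in the nucleus, Xpo5 carries it to the cytoplasm, and Dicer removes the loop to leave a short duplex. One strand of the duplex enters an Argonaute protein and guides it to messenger RNAs that pair with the seed, the bases 2 to 8 of the mature strand. Members that share a seed form a family and are thought to read similar targets, while neighbours in the genome are often cut from a single primary transcript. In pigment cells microRNAs are known to act on growth, survival and pigmentation genes. Dicer acts on the hairpin and not on the gene, and which form a cluster on this array reads (primary transcript, hairpin or mature strand) is not given in the sources used here.

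Mature sequences were found for 102 of the 132 genes in RefSeq (GRCm38.p6), 166 sequences with 157 distinct seeds. The seeds shared between genes numbered 6 and joined 11 genes. No mature sequence was found for the genes of the Sfmbt2 cluster described further on, so families among those genes are not counted. The sequences below are written 5′ to 3′ with the seed in capitals. The first pair is shown because these neighbours share the seed ACAUUCA while the array gave them unlike differences.
mmu-miR-181a-5p: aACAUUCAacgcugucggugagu
mmu-miR-181b-5p: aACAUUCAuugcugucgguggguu

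The next pair comes from Mir103-2, which was higher in siDicer, and Mir350, which was lower, both among the genes with the largest differences.
mmu-miR-103-3p: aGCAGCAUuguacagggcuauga
mmu-miR-350-3p: uUCACAAAgcccauacacuuuc

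The largest family among the genes with a mature sequence has the seed GUAAACA and is the product of Mir30a, Mir30c-1, Mir30c-2 and Mir30e. Mir30c-1 and Mir30c-2 are copies on different chromosomes that give the same 5p strand.
mmu-miR-30a-5p: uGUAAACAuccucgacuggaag
mmu-miR-30c-5p: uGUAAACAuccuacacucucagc
mmu-miR-30e-5p: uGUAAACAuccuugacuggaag

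The seed AGCAGCA is shared by Mir15b and Mir16-2, which lie side by side, and by Mir6419, which lies on another chromosome. The seed of miR-103-3p above, GCAGCAU, is the same word shifted by a base.
mmu-miR-15b-5p: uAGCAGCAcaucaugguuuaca
mmu-miR-16-5p: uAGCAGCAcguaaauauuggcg
mmu-miR-6419: cAGCAGCAaucugacacaugga

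The last pair comes from the genes with the smallest unadjusted p-values among those lower in siDicer.
mmu-miR-695: aGAUUGGGcauaggugacugaa
mmu-miR-7009-5p: uUGGGGUCaggggaccagagcu

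The arrays were alike as a whole, with medians of 4.63 to 4.68 and pairwise correlations of 0.993 to 0.997. All 5 melanocyte markers that could be named passed the filter. The brightest were Tyrp1, a melanin synthesis enzyme (12.83), and Slc24a5, a melanosome ion exchanger (10.72). The dimmest was Rxrg, a retinoid receptor gene (6.38). All 5 had a lower mean in siDicer, as did 54.5% of all tested genes. They ran from 12.81 against 12.86 for Tyrp1 to 6.11 against 6.65 for Rxrg. Their mean lay at 9.82 to 10.12 in siDicer and 9.95 to 10.33 in siScr. The part of these marker differences in the microRNA results was not tested. Some markers of other cell types passed the filter too. These were 2 of 5 named for keratinocytes and 3 of 5 for leukocytes, with 2 of 2 for fibroblasts and 1 of 2 for endothelium. The keratinocyte marker Flg (6.90) lay above Rxrg. All named markers of other cell types except Lor, Sprr1b, Cd48 and Ptprc also had a lower mean in siDicer. The mean over the named keratinocyte markers lay at 4.73 to 4.78 in siDicer and 4.64 to 4.85 in siScr. Leukocyte markers averaged 3.83 to 3.92 and 3.83 to 3.99, fibroblast markers (2 named) 5.64 to 5.95 and 5.67 to 5.99, and endothelial markers (2 named) 4.67 to 4.72 and 4.69 to 4.78, so the siDicer and siScr ranges overlapped in each list. All clusters came from chromosomes 1 to 4, where 26, 62, 23 and 21 of the microRNA genes lay.

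As a group the microRNA genes were dim. Their mean signal had a median of 5.63 and ran from 4.15 to 12.19, against a median of 6.45 over all tested genes. A signal depends on the probes as well as on the transcript, so the order of genes below is an order of signals and not of abundance.

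Mir1954 gave the highest signal. It read 12.19, 12.11 and 12.32 in siDicer at passages 47, 54 and 56 and 12.25, 12.21 and 12.08 in siScr. The groups overlapped, and its difference (siDicer minus siScr, as everywhere below) was 0.03. The standard error (SE) was 0.0792, here and below the moderated value from limma and not that of the gene's own arrays alone. A second cluster named Mir1954 had a mean of 9.27 and a difference of 0.14. RefSeq lists the gene on the same strand within Eng, which encodes a co-receptor for TGF-beta ligands. Which of these clusters lies there was not tested, so the bright signal may not come from within Eng.

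Mir3471-2 came next and was the steadiest of the bright genes, at 8.70, 8.68 and 8.63 in siDicer and 8.70, 8.70 and 8.59 in siScr. Mir684-2 read 8.02, 8.56 and 9.14 in siDicer and 8.59, 9.00 and 8.26 in siScr, and Mir684-1, a copy on another chromosome, read 7.99, 8.54 and 9.10 against 8.56, 9.01 and 8.24. These copies moved together on all 6 arrays. Whether their clusters share probes was not tested, so they may not be independent readings. In both, siDicer was below siScr at passages 47 and 54, by 0.57 and 0.44 for Mir684-2, and above it at passage 56, by 0.88. Their group differences were therefore near 0, at -0.04 (SE 0.281) and -0.06 (SE 0.283).

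Mir7005 read 8.02, 8.42 and 8.24 in siDicer and 8.0, 8.37 and 7.88 in siScr. Mir1956 read 8.20, 8.09 and 7.86 in siDicer and 8.10, 8.20 and 8.07 in siScr. In neither gene were the groups apart. The remaining bright genes, Mir466f-1 and Mir466f-3, belong to the Sfmbt2 cluster described further on. Mir466f-1 read 8.24, 8.22 and 8.57 in siDicer and 8.20, 8.51 and 8.12 in siScr, and Mir466f-3 read 8.09, 8.07 and 8.15 against 7.97, 8.17 and 8.04, again with overlap.

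The comparison of siDicer with siScr asks whether microRNA gene signals differ once Dicer is targeted. None of the 132 microRNA genes passed the test without passage (limma, Benjamini-Hochberg adjusted p under 0.05), in which 0.0187% of all tested genes did (1 gene, lower in siDicer). At an unadjusted p under 0.05 there were 5 higher and 4 lower microRNA genes, where 4.61% and 3.92% of all tested genes passed. With passage as a block, which compares the cultures within their shared passage, 2 microRNA genes passed: Mir181a-2 was higher and Mir350 was lower in siDicer. That is 1.52% of the microRNA genes, beside 1.74% of all tested genes (1.14% higher and 0.597% lower). The share called was thus near that of genes in general.

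The differences of the microRNA genes had a median of 0.01 and ran from -0.42 to 0.60, beside a median of -0.01 over all tested genes. Their size had a median of 0.070, against 0.064, and the SE a median of 0.097, against 0.077. Of the 132 genes, 70 had a higher mean in siDicer (53.0%), beside 45.5% of all tested genes. These were 21 of the 24 genes of the Sfmbt2 cluster, described further on, and 49 of the 108 outside it. The share outside that cluster, 45.4%, was near that of all tested genes. Groups without overlap were found for 3 higher and 3 lower genes, 2.27% in each direction, beside 6.68% and 7.79% of all tested genes. siDicer lay above siScr at all 3 passages for 10 genes (7.58%, beside 16.1%), and below it for 13 (9.85%, beside 20%). MicroRNA genes kept a direction over passages at a lower rate than genes in general; this difference in rates was not tested.

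**Figure D1:**
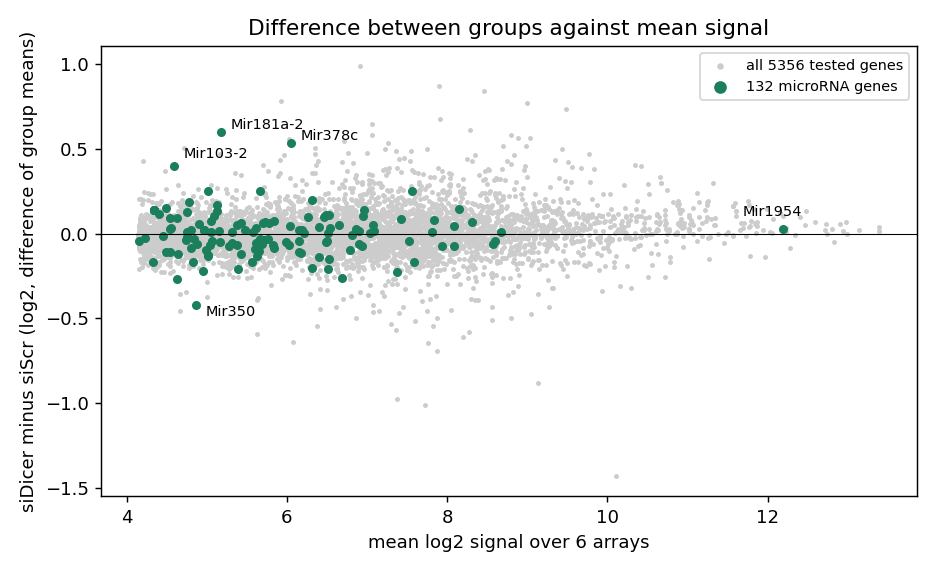
Difference of group means (siDicer minus siScr, log2) against mean log2 signal over the 6 arrays, for all 5356 tested genes (grey) and the 132 microRNA genes (green). The microRNA genes sit mostly at low signal and within the cloud of other genes, with Mir181a-2 (0.60) at the top and Mir350 (-0.42) at the bottom of them.

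Mir181a-2 had the largest difference of the microRNA genes. Its product miR-181a is known for tuning receptor signalling in lymphocytes and is also made in many other cells. The gene (cluster TC0200000711.mm.1, chromosome 2) read 5.33, 5.75 and 5.34 in siDicer at passages 47, 54 and 56 and 4.79, 5.34 and 4.49 in siScr. The siDicer culture was the higher at every passage, by 0.54, 0.41 and 0.85, but the groups overlapped, because the siScr culture of passage 54 lay as high as the lowest siDicer cultures. The means were 5.47 ± 0.24 and 4.87 ± 0.434 (SD, n = 3), a ratio of 1.52 and a difference of 0.60. The SE was 0.209 without passage (limma adjusted p = 0.454) and 0.0875 with it (limma adjusted p = 0.0294). Without the passage 47 pair the blocked adjusted p from limma was 0.170, and without the passage 54 or 56 pair it was 0.0228 or 0.0178.

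Mir181b-2, its neighbour, gives a mature strand with the same seed. It read 4.83, 5.54 and 5.08 in siDicer and 4.83, 5.47 and 4.39 in siScr. The groups overlapped, and only the passage 56 pair stood apart, by 0.69. Its difference was 0.25 (SE 0.27, limma adjusted p = 0.866, and 0.45 with passage as a block). Without the siScr culture of passage 56 it was 0.00. Both genes followed the cultures alike, highest at passage 54 in both groups and lowest in siScr at passage 56, but the difference between their responses was not tested. Nr6a1, a nuclear receptor gene that spans both on the opposite strand, had a difference of -0.11 (limma adjusted p = 0.714).

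Mir350 had the most negative difference. It read 4.58, 4.44 and 4.95 in siDicer and 5.13, 4.92 and 5.19 in siScr (cluster TC0100003622.mm.1, chromosome 1). The siDicer culture was lower at each passage, by 0.55, 0.48 and 0.24, and the groups overlapped only because siDicer at passage 56 lay just above siScr at passage 54. The means were 4.66 ± 0.264 and 5.08 ± 0.143 (SD, n = 3), a difference of -0.42 with an SE of 0.132 without passage (limma adjusted p = 0.392) and 0.0724 with it (limma adjusted p = 0.0385). The blocked call rests on the passage 47 and 54 pairs, since the limma adjusted p was 0.229 without the first and 0.142 without the second, and 0.0140 without passage 56.

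Mir350 lies on the strand of Cep170, a gene for a centrosome and microtubule protein, and the host was lower in siDicer as well. Cep170 read 8.56, 8.56 and 8.61 in siDicer and 9.07, 8.93 and 8.83 in siScr, without overlap. Its difference was -0.36 (SE 0.0778; limma adjusted p = 0.224, and 0.0748 with passage as a block), and by passage it was -0.51, -0.37 and -0.21. In the microRNA gene and in its host alike, the gap was widest at passage 47 and narrowest at passage 56. Whether the cluster named Mir350 reads the hairpin or the intron of Cep170 was not tested.

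Mir103-2 read 4.92, 4.49 and 4.97 in siDicer and 4.25, 4.31 and 4.62 in siScr (chromosome 2). siDicer was higher at each passage, by 0.67, 0.17 and 0.36, and the groups overlapped through siDicer at passage 54 and siScr at passage 56. The means were 4.79 ± 0.266 and 4.39 ± 0.196 (SD, n = 3), a difference of 0.40 that did not pass (SE 0.143, limma adjusted p = 0.467, and 0.102 with passage as a block). Pank2, its host on the same strand and an enzyme of coenzyme A synthesis, differed by -0.10 (limma adjusted p = 0.805). miR-103 is a microRNA known to target Dicer transcripts.

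**Figure D2:**
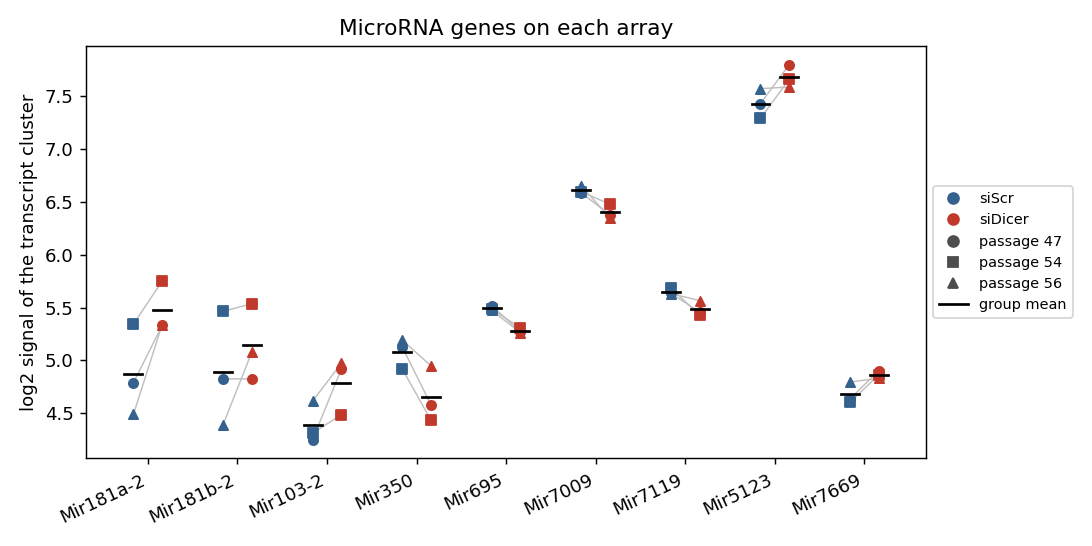
Log2 signal of 9 microRNA genes on each array, siScr in blue and siDicer in red, with the marker shape giving the passage, grey lines joining cultures of 1 passage and black bars the group means. Mir181a-2 is higher and Mir350 lower in siDicer along every line although the groups overlap, while Mir695 and Mir7009 are tight and fully apart.

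The lower genes without overlap had small differences. Mir695 read 5.27, 5.31 and 5.26 in siDicer and 5.52, 5.49 and 5.47 in siScr, a difference of -0.21 with the smallest p of the microRNA genes (SE 0.0532, limma adjusted p = 0.26). Mir7009 read 6.38, 6.48 and 6.35 against 6.59, 6.60 and 6.65, a difference of -0.21 (SE 0.0638, limma adjusted p = 0.376). Mir7119 read 5.46, 5.43 and 5.57 against 5.64, 5.69 and 5.63, a difference of -0.17 (limma adjusted p = 0.487). The gap was largest against its spread for Mir695, whose SD was 0.0238 in siDicer and 0.0227 in siScr.

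The genes around these had differences near or above 0. Anxa5, a phospholipid-binding protein gene that holds Mir7009 on the same strand, differed by -0.01, and Clspn, a replication checkpoint gene that holds Mir7119, differed by 0.29 (limma adjusted p = 0.634). Pigu, which encodes a part of the GPI transamidase and lies around Mir695 on the opposite strand, differed by 0.11.

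The higher genes without overlap were Mir5123, Mir7669 and Mir1928. Mir5123 read 7.80, 7.66 and 7.59 in siDicer and 7.43, 7.29 and 7.57 in siScr, a difference of 0.25 (SE 0.093, limma adjusted p = 0.491). Mir7669 read 4.90, 4.86 and 4.83 against 4.64, 4.61 and 4.80, a difference of 0.19 (SE 0.0658, limma adjusted p = 0.454). In both, the siScr culture of passage 56 came close to the siDicer values. Mir1928, named after its values were seen, read 5.72, 5.78 and 5.79 against 5.68, 5.70 and 5.70, a difference of 0.07 (limma adjusted p = 0.801).

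Of the remaining genes with the smallest p-values, Mir7013 read 5.87, 5.67 and 5.83 in siDicer and 5.76, 5.44 and 5.42 in siScr (difference 0.25, limma adjusted p = 0.574, and 0.181 with passage as a block), higher in siDicer at every passage. Mir669d-2, of the Sfmbt2 cluster, read 5.11, 5.15 and 5.36 against 5.21, 5.01 and 4.90 (0.17, limma adjusted p = 0.713). Both sets overlapped. On the lower side Mir1981 read 4.71, 4.42 and 4.33 against 4.89, 4.85 and 4.52 (-0.27, limma adjusted p = 0.639), and was lower in siDicer at every passage. Mir6419 read 4.70, 4.98 and 4.84 against 5.08, 5.23 and 4.87 (-0.22, limma adjusted p = 0.639), also lower at every passage, and the groups overlapped in both.

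In the Mir30 family, known for roles in differentiation and autophagy, mean signals were 5.62 for Mir30a, 4.87 for Mir30c-1, 6.94 for Mir30c-2 and 5.05 for Mir30e. Their differences were -0.13, -0.06, -0.07 and 0.07, with SEs of 0.073 to 0.093 and limma adjusted p-values of 0.689 to 0.897. At passage 54 Mir30a, Mir30c-1 and Mir30c-2 were lower in siDicer, by 0.33, 0.12 and 0.25, while Mir30e was higher by 0.21. Mir30c-1 and Mir30e lie beside each other within Nfyc, which encodes a subunit of the factor NF-Y, and had opposite signs at passages 47 and 54.

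The AGCAGCA genes belong to a family known to hold back the cell cycle, and 1 of the 3, Mir6419, was lower in siDicer at every passage as given above (-0.22, not passing). Mir15b read 5.18, 5.16 and 5.50 in siDicer and 5.22, 5.39 and 5.41 in siScr, and Mir16-2 read 5.09, 5.03 and 5.34 against 4.99, 5.27 and 5.15. These neighbours, which lie inside the span of Smc4, a condensin gene, gave differences of -0.06 (SE 0.103) and 0.02 (SE 0.102), and both were lower in siDicer at passage 54 and higher at passage 56. Mir149 and Mir7016, which share the seed AGGGAGG, differed by 0.00 and -0.11.

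The other neighbours within 10 kb of each other did not pass either. Mir194-1 and Mir215 had means of 5.84 and 5.98 and differences of 0.07 and -0.05. Mir296 and Mir298, from an imprinted region, had means of 4.33 and 4.15 and differences of -0.17 and -0.04, and Mir7221 and Mir7222 had means of 5.61 and 4.77 and differences of -0.05 and 0.01. This held with passage as a block and without it.

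Mir130a and Mir128-1, well-studied genes named after their values were seen, kept a direction without passing. Mir130a, known in blood vessel growth, read 6.59, 6.44 and 6.69 in siDicer and 6.43, 6.38 and 6.60 in siScr, higher at every passage but overlapping, with a difference of 0.11 (SE 0.0894, limma adjusted p = 0.823). Mir128-1, a gene of a neuronal microRNA, read 4.90, 5.09 and 4.86 against 5.09, 5.11 and 5.05, lower at every passage, with a difference of -0.13 (SE 0.0714, limma adjusted p = 0.689). Its host R3hdm1 differed by -0.24 (limma adjusted p = 0.287).

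The Sfmbt2 cluster, a large array of repeated microRNA genes inside the imprinted gene Sfmbt2 on chromosome 2, held 67 of the named microRNA genes, of which 24 passed the filter and 43 were dim. The members were 6 Mir466, 11 Mir467, 6 Mir669 and 1 Mir297 gene, with mean signals of 4.34 to 8.31 and a median of 4.96. They are not 24 independent readings: Mir467a-1, Mir467a-4, Mir467a-5, Mir467a-7 and Mir467a-8 carried the same values on every array, as did Mir467a-3, Mir467a-6 and Mir467a-10, which left 18 distinct sets of values. Near-identical copies can share probes, so the single genes of the cluster are uncertain.

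In this cluster 21 of 24 genes had a higher mean in siDicer, with a median difference of 0.06, but the passages disagreed. The median signal of its genes was 4.86, 4.92 and 5.14 in siDicer and 4.97, 5.12 and 4.76 in siScr at passages 47, 54 and 56. At passage 47 the siDicer culture was higher for 12 of 24 (median difference 0.01). At passage 54 it was higher for 1 of 24 (median -0.20), and at passage 56 for 24 of 24 (median 0.38, range 0.11 to 0.57). The direction thus turned from one passage to another, and with 1 array of each kind a passage has no test. Over all tested genes 48.5%, 49.2% and 44.5% were higher in siDicer at the 3 passages.

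Many single genes show the same turn, but not all alike. Mir669d-2 differed by -0.10, 0.14 and 0.45 by passage and was the 1 gene higher at passage 54. Mir669a-3, at 0.24, -0.27 and 0.48, was higher at passage 47 too. Mir467c, bright within the cluster with a mean of 7.83, differed by -0.02, -0.12 and 0.37, Mir669d by -0.06, -0.26 and 0.51, and Mir297a-3 by -0.33, -0.56 and 0.38. Sfmbt2, the Polycomb gene around the cluster, did not follow: it differed by -0.16, 0.05 and -0.05, with a group difference of -0.05 (limma adjusted p = 0.96). Of the Mir466 and Mir669 genes found elsewhere, Mir669n, Mir466k and Mir466q were each lower in siDicer at passage 54 (-0.28 to -0.25) and higher at passage 56 (0.10 to 0.56).

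Outside the cluster lay 108 microRNA genes. siDicer was higher for 63, 34 and 54 of them at passages 47, 54 and 56, with median differences of 0.04, -0.10 and 0.01. Over all 132 genes the shares were 56.8%, 26.5% and 59.1%.

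**Figure D3:**
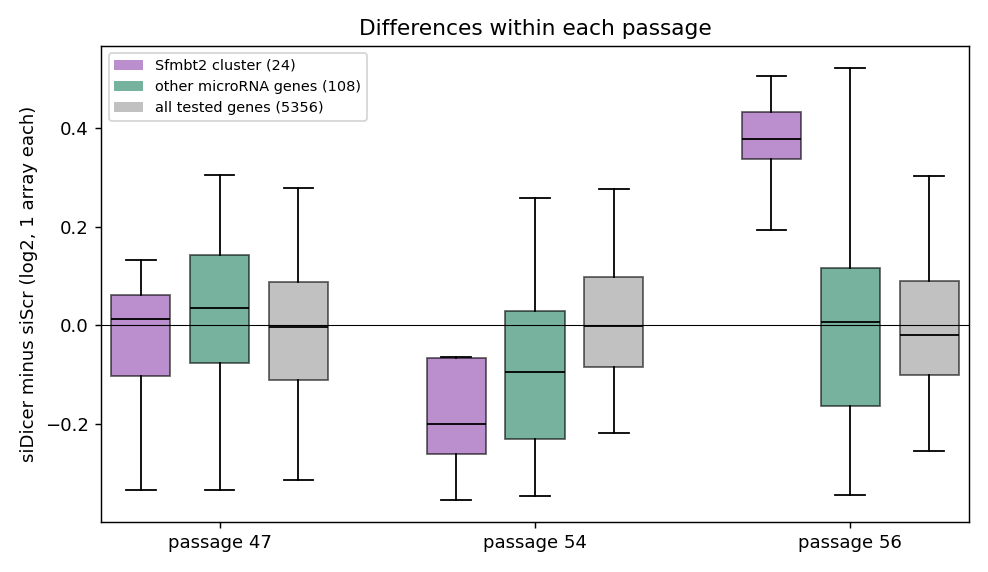
Differences within each passage (siDicer minus siScr, log2, 1 array each) for the 24 genes of the Sfmbt2 cluster, the 108 other microRNA genes and all 5356 tested genes. Boxes span the quartiles with the median as a line and whiskers run from the 5th to the 95th percentile; the cluster lies below 0 at passage 54 (median -0.20) and above it at passage 56 (median 0.38), while all tested genes stay centred near 0.

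The single arrays behind this can be named. In siScr at passage 54, 108 of the 132 microRNA genes (81.8%) lay above their own group's mean, beside 50.1% of all tested genes. For the Sfmbt2 cluster 23 of 24 were above it on that array, and 24 of 24 in siDicer at passage 56. On the siScr array of passage 56 it was 0 of 24, and on the siDicer arrays of passages 47 and 54 it was 1 and 3 of 24. Deviations from a group's mean cancel out over its arrays, so the counts within a group depend on each other. Outside the cluster, 85 of 108 (78.7%) were above their group mean in siScr at passage 54. Small nucleolar RNA genes, another class of short RNA, lay above their group mean on that array for 50 of 113 (44.2%). Over all 132 microRNA genes the other arrays had 30.3% to 49.2% above their group mean, and siDicer at passage 56 stood high in the Sfmbt2 cluster but not outside it, where 40 of 108 (37.0%) were above. Why these arrays differed was not tested. Without the siScr array of passage 54, 83 microRNA genes had a higher mean in siDicer. Without the siScr array of passage 56 it was 51, against 70 with all arrays.

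**Figure D4:**
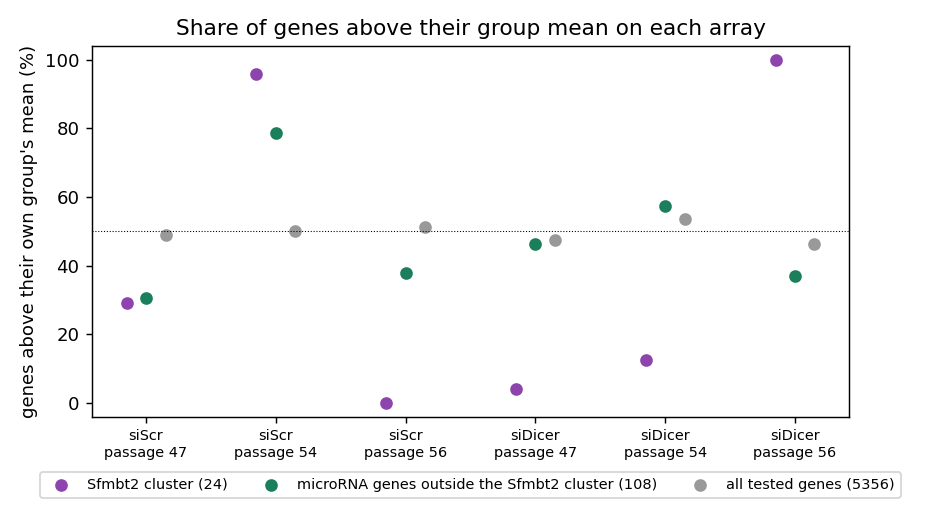
Share of genes above their own group's mean on each of the 6 arrays, for the Sfmbt2 cluster (24), the microRNA genes outside it (108) and all tested genes (5356); the dotted line marks 50%. The grey points stay close to the line, whereas the Sfmbt2 cluster runs from 0% (siScr, passage 56) to 100% (siDicer, passage 56).

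The widest spread of any microRNA gene was that of Mir378c, at 5.59, 6.68 and 6.70 in siDicer and 6.80, 4.33 and 6.24 in siScr, so that its passage differences ran from -1.21 to 2.35. Mir3098 differed by 0.37, 0.65 and -0.42. For these the cluster's chromosome (3 and 2) was not the one RefSeq lists for the gene (14 and 6), while it was the same for the other 130. Neither difference passed (0.53, limma adjusted p = 0.873, and 0.20, limma adjusted p = 0.879), and whether these clusters read the named genes was not tested.

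The hairpins, known for 95 of the genes, were 54 to 139 bases long with a GC content of 33.8% to 83.1% (median 53.7%). Across these genes GC content went with mean signal at a Pearson correlation of 0.23 and with the group difference at -0.27. By passage the correlation with the difference was 0.16, -0.07 and -0.50, so genes with GC-poor hairpins tended to be the higher ones in siDicer at passage 56. These are descriptions across genes that share the same 6 arrays, probe chemistry and base composition. Genes of the Sfmbt2 cluster such as Mir466f-1, Mir467c and Mir669d had no listed hairpin and are not in these correlations. Hairpin length went with mean signal at -0.08.

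Genes that contain a microRNA gene on the same strand were tested for 51 of the 132. In 14 pairs both were higher in siDicer, in 14 both were lower and in 23 the signs were opposite. Mir350 and Cep170 had the most negative differences of these genes on either side. Mir3092, within Fndc3b, differed by -0.10, while Fndc3b, a fibronectin type III domain gene named after its values were seen, read 9.02, 9.20 and 8.99 in siDicer and 8.58, 8.74 and 8.51 in siScr, without overlap. Its difference was 0.46 (limma adjusted p = 0.174, and 0.0264 with passage as a block). B4galt1, a galactosyltransferase gene around Mir5123, and Pi4kb, a lipid kinase gene around Mir7013, both differed by 0.13. Ubap2l around Mir7669 differed by -0.01 and Mtarc2 around Mir1981 by -0.07. A further 25 microRNA genes had no gene listed around them.

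**Figure D5:**
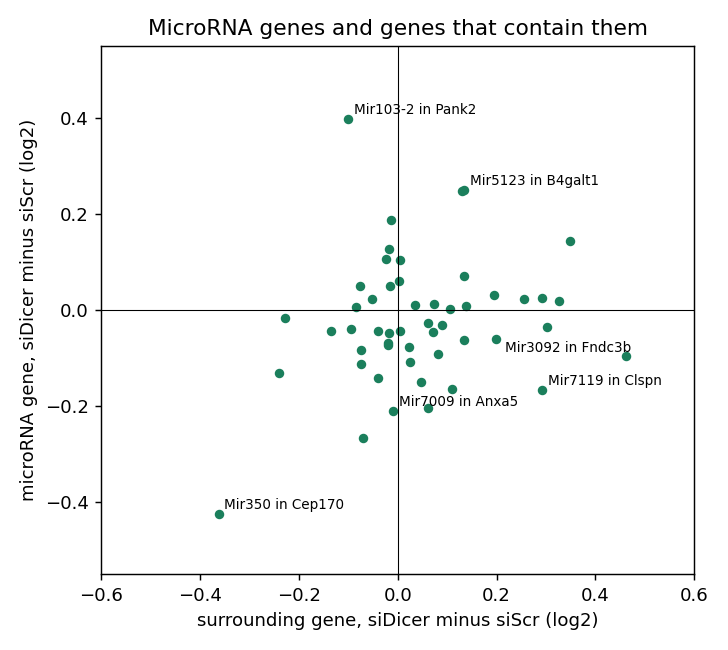
Difference of the microRNA gene (vertical) against that of the gene that contains it on the same strand (horizontal), both siDicer minus siScr in log2, for the tested pairs. Mir350 with Cep170 lies at the lower left, Mir103-2 is high while Pank2 is near 0, and Fndc3b is the rightmost host while Mir3092 is just below 0.

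Genes that make, load or use microRNAs were taken from a list of 77, of which 18 were named and all passed the filter. None of them passed the test without passage and 1 did with passage as a block, and 9 had a higher and 9 a lower mean in siDicer (median difference -0.01, as over all tested genes). With the block 1.74% of all tested genes passed. Groups without overlap were found for 1 higher and 3 lower genes of the 18, beside 6.68% and 7.79% of all tested genes. Xrn2, a nuclear exoribonuclease, was the gene that passed with the block. It read 8.23, 8.26 and 8.44 in siDicer and 8.81, 8.85 and 8.79 in siScr, all siDicer values below all siScr values. Its difference was -0.51 (SE 0.0754, limma adjusted p = 0.113, and 0.0291 with passage as a block). Without passage 47 or 54 the blocked limma adjusted p was 0.196 or 0.114.

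Ago3, an Argonaute that holds the guide strand, read 7.10, 7.24 and 7.13 in siDicer and 7.47, 7.44 and 7.46 in siScr, again without overlap. Its difference was -0.30 (SE 0.0654, limma adjusted p = 0.231, and 0.0827 with passage as a block). Cnot9, a subunit of the deadenylase complex that Argonaute recruits, differed by -0.14 with overlapping groups. On the higher side Mov10, a helicase that binds Argonaute, differed by 0.17, Zc3h12a, a nuclease reported to cut microRNA precursors, by 0.13, and Pabpc4, a poly(A)-binding protein, by 0.12. Neither Ago3 nor these genes passed in either fit, and the limma adjusted p-values of Cnot9, Mov10, Zc3h12a and Pabpc4 were 0.639 to 0.703 without the block.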

How the data were processed

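The deposited values are log2 signals per transcript cluster on 6 arrays; the scale was read from the values, which run from 1.70 to 13.70. The submitters' processing notes name Affymetrix Expression Console. Neither summarisation method nor annotation release nor genome build is given in the sources used here, and coordinates are therefore left out. Of 16383 clusters, 7706 were paired with 1 gene (7652 genes, symbols updated through RefSeq), 279 with several and 8398 with none. The brightest cluster stood for a gene with more than 1. The comparison used R 4.3.3 and limma 3.58.1 (lmFit, then eBayes with a signal-dependent variance trend), two-sided, over all 5356 genes at or above the 30th percentile, with Benjamini-Hochberg adjustment. The fit without passage was first tried on simulated data that had no passage effect. The planted differences there were larger than that of any microRNA gene here. Neither the fit with passage as a block nor smaller differences were simulated. SDs are over 3 arrays, whose number limits the precision. SEs are moderated by limma, which draws each gene's variance toward that of genes with like signal. They can therefore be larger or smaller than the printed values alone would give. The smallest two-sided p of an exact permutation test of 3 against 3 is 0.1, so none was used. Within a passage there is 1 array of each kind and no test.

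In the labels a replicate number stands for the same passage in siDicer and siScr, so the numbers pair the samples. Deviations from the group means correlated within passages 47, 54 and 56 at 0.417, 0.620 and 0.067 over all tested genes, and at -0.118, -0.077 and -0.280 over the microRNA genes. The main comparison leaves passage out.

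The members, the gene lists and the tests were chosen with earlier results of these data known. Named in full are Mir181a-2, Mir350 and Mir103-2, the 8 brightest members, members that pass in either fit and the 6 smallest p-values in each direction. Members of a shared seed or cluster, the genes around members, and up to 3 list genes in each direction are named with their differences. Alternatives were no filter on dim genes, a filter at the 50th percentile, quantile normalisation, median centring, array weights, no variance trend, the mean of a gene's clusters, passage as a block and each array or passage left out.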

Additional observations from a re-analysis of the deposited data

How the results depend on the processing

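With passage as a block (the replicate block), 2 microRNA genes, 93 of all tested genes and 1 gene of the microRNA pathway list passed, against 0, 1 and 0 without it. With arrays or passages left out, the counts ran from 0 to 9, from 0 to 153 (19 for the block without passage 54) and from 0 to 1. The 9 of 132 came from the block without passage 56, beside at most 153 of all 5356 tested genes. Mir350, Mir684-1, Mir684-2, Mir297a-3, Mir466d and Mir669b were lower, and Mir181a-2, Mir3098 and Mir5123 higher in siDicer. They are not 9 independent readings: Mir684-1 and Mir684-2 moved together, and Mir297a-3, Mir466d and Mir669b belong to the Sfmbt2 cluster. Without passage 54 the block called Mir181a-2 alone, and without passage 47 no microRNA gene. Array weights gave 14 of all tested genes and 1 pathway gene (Xrn2). The number of microRNA genes higher in siDicer, 70, was 135 of 249 with no filter on dim genes, 40 with the 50th percentile and 49 to 83 with arrays or passages left out, where their median difference ran from -0.045 to 0.041.

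Of 66 named genes, 38 kept their direction under every setting, as did 22 of 47 microRNA genes, Mir181a-2, Mir181b-2, Mir103-2 and Mir350 among them. Differences turned sign with array weights for Mir684-1 (0.13), Mir684-2 (0.14), Mir30e (-0.0033), Mir215 (0.031), Mir298 (0.049), Mir6898 (0.030), Mir669b (0.049) and Sfmbt2 (0.061), with quantile normalisation for Mir3471-2 (-0.024) and with median centring for Anxa5 (0.0016). With 1 array left out they turned for 27 genes, which ranged as follows: Mir1954 -0.032 to 0.074, Mir3471-2 -0.027 to 0.029, Mir684-1 -0.34 to 0.21, Mir684-2 -0.33 to 0.23, Mir466f-1 -0.047 to 0.18, Mir466f-3 -0.0027 to 0.10, Mir1956 -0.15 to 0.022, Mir30c-2 -0.14 to 0.026, Mir30e -0.0072 to 0.16, Mir15b -0.17 to 0.0029, Mir16-2 -0.080 to 0.081, Mir194-1 -0.022 to 0.18, Mir215 -0.11 to 0.048, Mir298 -0.12 to 0.093, Mir6898 -0.097 to 0.027, Mir378c -0.20 to 1.04, Mir3098 -0.0023 to 0.42, Anxa5 -0.024 to 0.014, Ubap2l -0.042 to 0.025, Sfmbt2 -0.21 to 0.069, Mir467c -0.0075 to 0.20, Mir669d -0.099 to 0.18, Mir669b -0.26 to 0.051, Mir7221 -0.14 to 0.0033, Mir7222 -0.080 to 0.13, Mir149 -0.024 to 0.056 and Mir3092 -0.21 to 0.00089. With passage as a block they turned without passage 47 for Mir684-1 (0.19), Mir684-2 (0.22), Mir16-2 (-0.026), Mir6898 (0.035), Anxa5 (0.023), Mir669b (0.019) and Mir149 (-0.048); without passage 54 for Mir684-1 (0.14), Mir684-2 (0.15), Mir30c-2 (0.016), Mir15b (0.028), Mir298 (0.048), Mir378c (-0.38), Mir3098 (-0.029), Ubap2l (0.0066), Mir297a-3 (0.021) and Mir669b (0.0083); without passage 56 for Mir1954 (-0.085), Mir3471-2 (-0.0092), Mir466f-1 (-0.12), Mir16-2 (-0.074), Mir194-1 (-0.085), Mir467c (-0.067), Mir669d (-0.16), Mir7221 (0.024), Mir7222 (-0.045) and Mir3092 (0.0032). The cause of these turns was not tested. The background correction could not be varied here, and signal over background is unknown.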
